A study of Homo sapiens with 6 samples.

Results

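The genes described here encode subunits of the ATP-dependent chromatin remodellers of the SWI/SNF, CHD, NuRD, ISWI and INO80 families. They were chosen by name, as 50 gene symbols matched through NCBI gene IDs to the 19589 features of the authors' table, and all 50 had a row. Measured values played no part in matching them, but the members were chosen with earlier results of these data known. HepG2, the line named by the labels, comes from a human liver tumour, and the cells were given a small interfering RNA against the long non-coding RNA HOTAIR (siHOTAIR) or a negative control one (siNC). By the labels, each group had 3 libraries of total RNA, made with a stranded kit after removal of ribosomal RNA, and no other agent or genotype is named. Whole reads of only 5 libraries, 3 of siHOTAIR and 2 of siNC, make up the deposited means, and 1 labelled siNC library is unaccounted for. The labels do not say that libraries of a group came from separate cultures, so each p-value reflects the spread between libraries only, and that spread may be technical.

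The reads of each library were recovered from the deposited means for all 50 genes. Libraries are called siNC a and b and siHOTAIR a, b and c, where the letters are only names. The recovered features held 5868407 to 7738222 reads per library. HOTAIR, the targeted RNA, had 202 and 150.1 normalized counts (reads divided by the size factor of the library) in siNC and 62.4, 78.2 and 59.7 in siHOTAIR. The siHOTAIR libraries therefore lay below both controls, at 37.9% of the siNC mean. Of 18 liver markers, ALB, AFP, APOB, APOH, TTR, FGA, FGG and FOXA2 had no row, APOA1, APOA2, TF, SERPINA1, FGB and AHSG had 0 to 2 reads in every library, and CPS1 was high, with a mean of 23334 in the authors' deposited table. The liver label is thus not borne out by the secreted proteins that define hepatocytes. Of 10 fibroblast and stellate markers, the 7 with recovered reads summed to 1279.5 and 1286 normalized counts in siNC and to 2180.4 to 2565 in siHOTAIR, with COL1A2 and POSTN without a row. Most of that sum was COL1A1, a collagen gene (1051 and 1078 in siNC, 1755, 1929 and 2144 in siHOTAIR). COL5A1, whose reads were not recovered, is outside the sum and had a higher mean, 7810 in the authors' deposited table. Of the 7 tested, COL1A1, COL5A1, PDGFRB and DCN rose, while ACTA2 (44.4 and 37.0 against 29.5, 37.5 and 19.2) and COL3A1 (20.9 and 34.7 against 29.5, 23.6 and 24.8) did not pass and were low in both groups, as was THY1. Of 6 endothelial markers, the 5 with recovered reads summed to 1279.3 and 1392 in siNC and to 1928 to 1961 in siHOTAIR. Most of that sum was ENG (1206 and 1315 in siNC, 1843, 1837 and 1811 in siHOTAIR). Of the 4 tested, ENG and VWF rose, while CDH5 and PECAM1 did not pass. VWF had 0 and 1 reads in siNC and 5 to 12 in siHOTAIR. PECAM1 had 4 to 7 reads per library, and KDR had no row. The part of these marker lists in the results below was not tested.

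Chromatin remodellers use ATP to slide, eject or exchange nucleosomes. SWI/SNF (BAF and PBAF) complexes open chromatin around 1 of the alternative ATPases SMARCA4 and SMARCA2, ISWI complexes space nucleosomes, and INO80-type complexes exchange histone variants. NuRD couples a CHD ATPase to histone deacetylases and to methyl-CpG-binding proteins and is best known as a co-repressor. Many subunit positions are filled by 1 of several paralogs, so the make-up of a complex can differ between cells.

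Of the 49 members with an adjusted p, 11 rose and 9 fell in siHOTAIR at an adjusted p under 0.05 in the authors' deposited table, and 29 did not pass. That is 40.8% of the members, against 40.4% of all 14597 features tested (20% rose and 20.4% fell). The members' share is near the background, and among features with a mean normalized count of 200 to 3500, a range set after the members' means were seen, 19 of 41 members (46.3%) were called, against 55% of features. The median log2 fold change was 0.09 over the members and 0.01 over all features, and the median size regardless of sign was 0.23 against 0.32. Limma on the recovered reads called 22 of the 49 members (44.9%) and 46.9% of all features with such reads. DPF3 had 0 to 2 reads per library and no adjusted p. Only MTA1 and BCL7A changed by more than 2-fold, and these were the 2 members on the authors' own list of 766 changed genes. In the recovered values, the 2 groups did not overlap for 28 of the 49 members, 57.1% (16 higher and 12 lower in siHOTAIR), against 62.9% of 14435 features. CHD4 counts among the 16 only by the closest of 3 possible sets of its reads, described below. In bulk RNA, fewer cells of a type and less RNA per cell cannot be told apart.

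**Figure D1:**
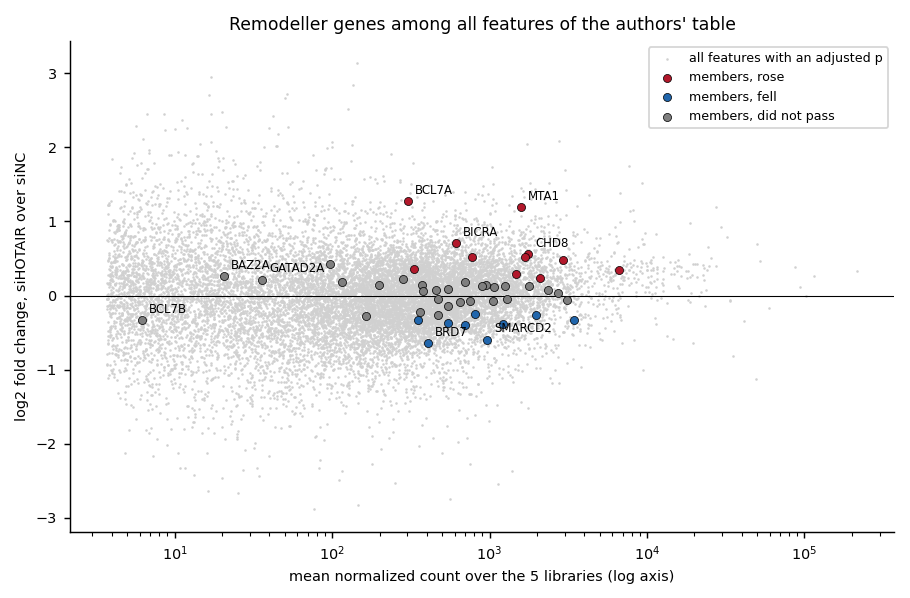
Log2 fold change of siHOTAIR over siNC against the mean normalized count (log axis) for all 14597 features with an adjusted p (grey dots) and for 49 remodeller genes (large points, red where they rose, blue where they fell, grey where they did not pass). MTA1 and BCL7A stand highest among the members, and BRD7 and SMARCD2 lowest, all well inside the range of the other features.

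**Figure D2:**
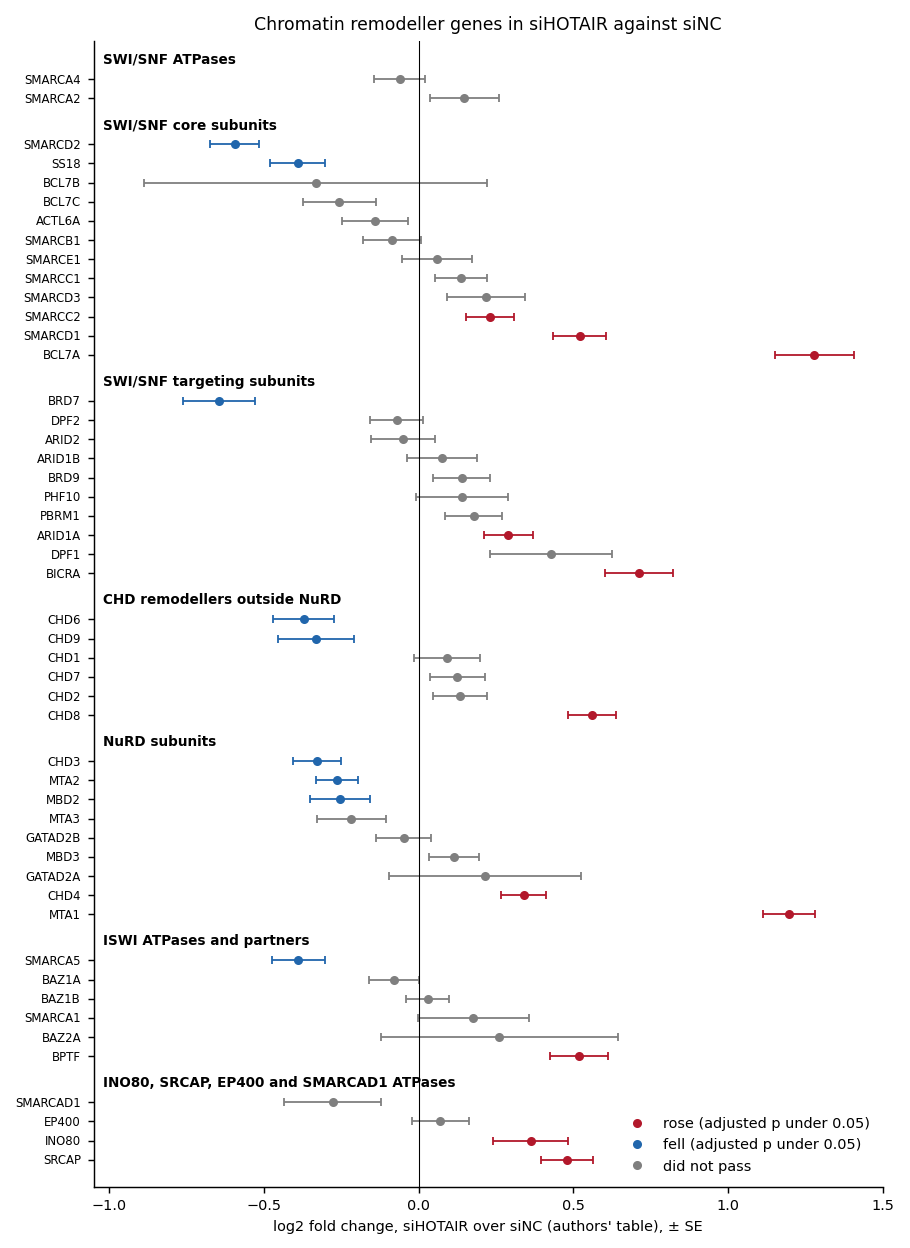
Log2 fold change with its standard error (whiskers) of each of 49 remodeller genes in the authors' deposited table, grouped by complex and ordered by value. Every group of genes holds points on both sides of 0, and 11 genes rose and 9 fell.

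Among the SWI/SNF ATPases, neither gene passed. SMARCA4, the main ATPase of the complex in these libraries, had 3224 and 3110.3 normalized counts in siNC and 2750.4, 3001 and 3359 in siHOTAIR. Its log2 fold change was -0.06 (SE 0.0824, adjusted p = 0.6), per the authors' deposited table. The groups overlapped, and the siHOTAIR libraries spanned the control range. SMARCA2, its paralog, had 359 and 337 normalized counts in siNC and 365, 399 and 398 in siHOTAIR, with a log2 change of 0.15 (SE 0.111, adjusted p = 0.307), per the authors' deposited table. Per kilobase of transcript, the mean level of SMARCA4 was 533 and that of SMARCA2 52.6 normalized counts, so SMARCA4 made up 91.7% ± 0.145 (SD, n = 2) of the pair in siNC and 90.5% ± 0.563 (SD, n = 3) in siHOTAIR.

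Of the 12 SWI/SNF core subunits, 3 rose, 2 fell and 7 did not pass. BCL7A, a small subunit named from a lymphoma translocation, had 167 and 156 normalized counts in siNC and 386, 397 and 406 in siHOTAIR. Every siHOTAIR library was far above both controls, and the siHOTAIR mean was 246% of the siNC mean. The log2 fold change of BCL7A was 1.28 (SE 0.127, adjusted p = 5.64e-22), per the authors' deposited table. SMARCD1 (BAF60A) and SMARCD2 (BAF60B), which occupy the same position and link the complex to transcription factors, moved in opposite directions. SMARCD1 had 611 and 621 normalized counts in siNC and 904, 854 and 894 in siHOTAIR, a log2 change of 0.52 (SE 0.0862, adjusted p = 1.93e-08), per the authors' deposited table. SMARCD2 fell from 1163 and 1239 to 770.1, 811 and 799, a log2 change of -0.59 (SE 0.0804, adjusted p = 2.73e-12), per the authors' deposited table. For each gene the groups were far apart relative to the spread within them.

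SS18, the subunit fused to SSX proteins in synovial sarcoma, had 826 and 793 normalized counts in siNC and 633, 636 and 579 in siHOTAIR. All 3 siHOTAIR libraries were lower, and the authors' deposited table gives SS18 a log2 change of -0.39 (SE 0.0895, adjusted p = 7.3e-05). SMARCC2 (BAF170), a scaffold on which the complex assembles, rose by 0.23 on the log2 scale in the authors' deposited table, from 1984 and 1778 normalized counts to 2079.9, 2209.7 and 2354. That rise was small and rested on few libraries: in limma on the recovered reads the adjusted p of SMARCC2 was 0.0176, and it was 0.209 without siNC b, 0.0785 without siHOTAIR b and 0.0739 without siHOTAIR c. Its partner scaffold SMARCC1 (BAF155) had a log2 fold change of 0.14 in the authors' deposited table and did not pass, with groups that overlapped (1840.2 and 1526 against 1752, 1872 and 1939 normalized counts).

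The other core subunits that did not pass had deposited log2 fold changes of -0.33 to 0.22 in the authors' deposited table. SMARCB1 (SNF5), the tumour suppressor of rhabdoid tumours, stood at -0.09, with 626 and 715 normalized counts in siNC and 624 to 637 in siHOTAIR. SMARCE1 (BAF57), a DNA-binding subunit, stood at 0.06, with 377 and 365 against 358 to 421. ACTL6A (BAF53A), an actin-related subunit shared with INO80 complexes, stood at -0.14, with 528 and 626 against 479 to 573. For these 3 genes the groups overlapped. SMARCD3 (BAF60C) stood at 0.22, and its siHOTAIR libraries (282 to 319) lay above the controls (247 and 268) although it did not pass. BCL7C stood at -0.26 (adjusted p = 0.0658), per the authors' deposited table, with 463 and 576 normalized counts against 402 to 484. Limma on the recovered reads put BCL7C past the threshold (adjusted p = 0.0329), but not without siNC b (0.554), siHOTAIR a (0.125) or siHOTAIR c (0.0861). BCL7B was near the floor of the data, with 2 to 11 reads in a library and a log2 fold change of -0.33 in the authors' deposited table.

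Of the 10 tested SWI/SNF targeting subunits, which set the subtype of the complex and read histone marks, 2 rose, 1 fell and 7 did not pass. BICRA (GLTSCR1), which defines the non-canonical GBAF complex, had 465 and 415 normalized counts in siNC and 652, 698 and 831 in siHOTAIR. Its groups were separated by more than their spread, with a log2 change of 0.71 (SE 0.111, adjusted p = 1.61e-09), per the authors' deposited table. BRD7, a bromodomain subunit of PBAF, had 562 and 472 in siNC and 301, 369 and 321 in siHOTAIR. The siHOTAIR mean of BRD7 was 64.0% of the siNC mean, and its log2 fold change was -0.65 (SE 0.118, adjusted p = 3.92e-07), per the authors' deposited table. ARID1A (BAF250A), the DNA-binding subunit of BAF that is often mutated in cancer, rose by 0.29 (SE 0.0805, adjusted p = 0.00132) on the log2 scale in the authors' deposited table. ARID1A had 1386 and 1212 normalized counts in siNC and 1532, 1558 and 1692 in siHOTAIR, and without siNC b the limma adjusted p was 0.105.

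The remaining targeting subunits did not pass. ARID1B, the paralog of ARID1A, had a log2 fold change of 0.08 in the authors' deposited table, with 492 and 388 normalized counts in siNC and 438 to 490.0 in siHOTAIR. ARID2, the PBAF counterpart of ARID1A, stood at -0.05 there, with 511 and 445 against 448 to 473. PBRM1, the PBAF subunit with several bromodomains, stood at 0.18, and its siHOTAIR libraries (708 to 771) lay above the controls (682 and 608). BRD9, the GBAF bromodomain subunit that works with BICRA, stood at 0.14 there, with 915 and 865 normalized counts in siNC and 878 to 1069 in siHOTAIR. PHF10, a PBAF subunit with PHD fingers, stood at 0.14 in the authors' deposited table, with 205 and 170.3 against 185 to 222. DPF2, its BAF counterpart, stood at -0.07 there, with 775 and 763 against a slightly lower 716 to 747. DPF1, the neuronal form of DPF2, had 76.2 and 84.0 normalized counts in siNC and 104 to 117 in siHOTAIR. All 3 siHOTAIR values of DPF1 were higher, its log2 fold change was 0.43 (adjusted p = 0.0686) in the authors' deposited table, and limma on the recovered reads gave an adjusted p of 0.02 (0.148 without siNC a and 0.0958 without siHOTAIR b).

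**Figure D3:**
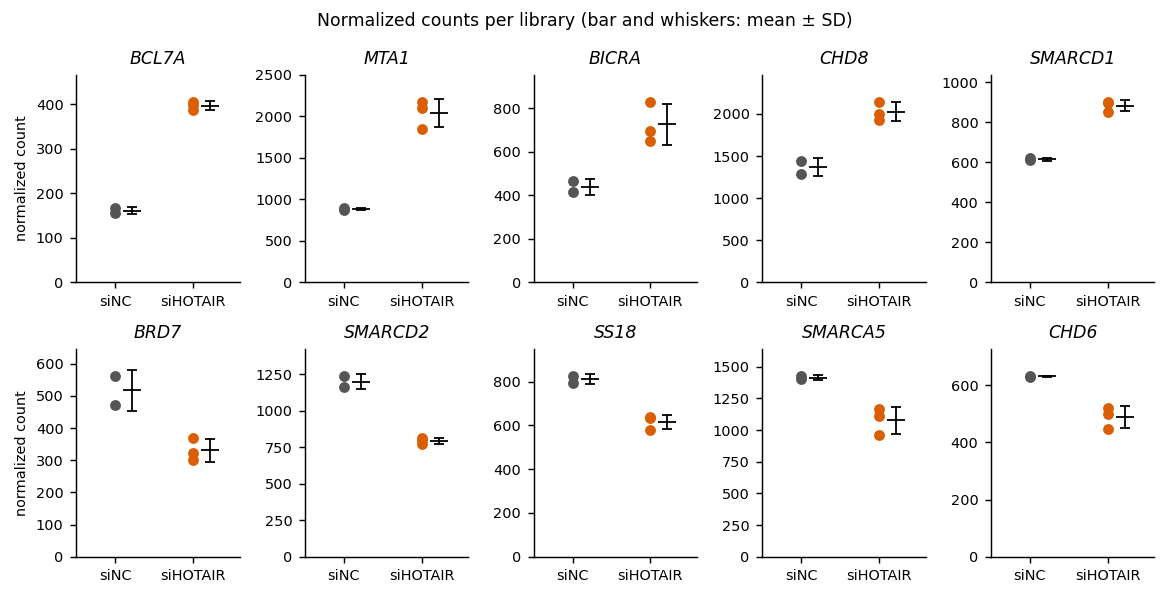
Normalized count per library (points, linear axes from 0) in 2 siNC and 3 siHOTAIR libraries for the 5 remodeller genes that rose most and the 5 that fell most, with mean and SD beside the points. In none of the 10 genes do the groups overlap, and siHOTAIR means run from 64.0% of the siNC mean for BRD7 to 246% for BCL7A.

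In NuRD, 2 subunits rose, 3 fell and 4 did not pass. MTA1, a metastasis-associated scaffold that recruits the deacetylases, had 879 and 896 normalized counts in siNC and 1852, 2104 and 2179 in siHOTAIR. The siHOTAIR mean of MTA1, 2045 ± 171 (SD, n = 3), was 230.3% of the siNC mean, 888 ± 12.2 (SD, n = 2). Its log2 fold change of 1.20 (SE 0.083, adjusted p = 7.57e-45) had the smallest adjusted p of the 49 members in the authors' deposited table. MTA2, which fills the same position, had 2175 and 2239 in siNC and 1840.0, 1899 and 1773 in siHOTAIR. MTA2 fell, with a log2 change of -0.26 (SE 0.0681, adjusted p = 0.000533), per the authors' deposited table. MTA3 had 403 and 383 against 333, 334 and 348, lower in every siHOTAIR library, but its log2 fold change of -0.22 did not pass in the authors' deposited table (adjusted p = 0.104).

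The ATPases of NuRD also moved apart. CHD4 (Mi-2 beta) had 5761 and 5729.8 normalized counts in siNC and 6851, 7404 and 7578 in siHOTAIR, higher in every siHOTAIR library. CHD4 had a log2 change of 0.34 (SE 0.0723, adjusted p = 1.81e-05), per the authors' deposited table. Its reads per library are less certain than those of the other members, since at means of 4000 to 7000 the recovery also found a solution for 25 of 143 means that had been moved at random. For CHD4, 3 sets of reads came near the deposited values, and the closest is the one given here. The others left the group means of CHD4 at 5726 to 5752 and 7273 to 7291 but spread its libraries widely, with SDs of up to 3191 in siNC and 3872 in siHOTAIR and groups that overlapped. Its values per library therefore rest on the choice of the closest set, and its call in the authors' deposited table does not. CHD3 (Mi-2 alpha) had 4021 and 3864 in siNC and 2889.9, 3141 and 3385 in siHOTAIR. CHD3 fell, with a log2 change of -0.33 (SE 0.0768, adjusted p = 0.000105), per the authors' deposited table.

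Of the methyl-CpG-binding subunits, MBD2, which binds methylated DNA, had 885 and 897 normalized counts in siNC and 809, 775 and 650.0 in siHOTAIR. MBD2 fell by 0.25 on the log2 scale in the authors' deposited table, but siHOTAIR c was the lowest library by a wide margin, and the limma adjusted p was 0.12 without it and 0.0661 without siNC b. MBD3, which lacks strong binding to methylated DNA, stood at 0.11 in the authors' deposited table and did not pass, with 999.6 and 1046 against 1046 to 1168. Of the p66 subunits that bridge MBD proteins to CHD4, GATAD2B stood at -0.05 there and GATAD2A at 0.21, and neither passed. GATAD2A had 28 to 43 reads per library, against 1074 to 1626 for GATAD2B.

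Among the CHD remodellers outside NuRD, 1 rose, 2 fell and 3 did not pass. CHD8, a Wnt pathway regulator and autism risk gene, had 1443 and 1291 normalized counts in siNC and 1925, 2001 and 2145 in siHOTAIR. Every siHOTAIR library was higher, with a log2 change of 0.56 (SE 0.0776, adjusted p = 9.85e-12) for CHD8 in the authors' deposited table. CHD6, of the same subfamily, had 633 and 629.7 in siNC and 446, 499 and 520.5 in siHOTAIR. CHD6 fell, with a log2 change of -0.37 (SE 0.099, adjusted p = 0.000792), per the authors' deposited table. CHD9 had 439.5 and 362 against 287, 342 and 331 and a log2 change of -0.33 (SE 0.122, adjusted p = 0.0195), per the authors' deposited table. The call of CHD9 depended on single libraries: without siNC a its limma log2 fold change was -0.18 (adjusted p = 0.289), and without siHOTAIR a the adjusted p was 0.0676. CHD7, the gene mutated in CHARGE syndrome, stood at 0.12 in the authors' deposited table, with 890.0 and 810.1 against 874 to 1000.4. CHD1 and CHD2, which act at transcribed genes, stood at 0.09 and 0.13 there. CHD1 had 548 and 494 against 497 to 613, and CHD2 1229 and 1118 against 1165 to 1385, so the groups of these 3 genes overlapped.

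Of the 6 ISWI genes, 1 rose, 1 fell and 4 did not pass. BPTF, the large subunit of NURF that reads histone H3 lysine methylation, had 1470.2 and 1191 normalized counts in siNC and 1727, 2028 and 1993 in siHOTAIR. Its log2 fold change was 0.52 (SE 0.0932, adjusted p = 2.52e-07), per the authors' deposited table. SMARCA5 (SNF2H), the main ISWI ATPase, had 1427 and 1402 in siNC and 1164, 1107 and 959 in siHOTAIR. SMARCA5 fell to 76.1% of the siNC mean, with a log2 change of -0.39 (SE 0.0854, adjusted p = 3.27e-05), per the authors' deposited table. The other ATPase, SMARCA1 (SNF2L), which pairs with BPTF in NURF, had 101 to 112 in siNC and 113 to 125 in siHOTAIR and did not pass, at 0.18 in the authors' deposited table. The ATPase partners BAZ1A (ACF1), BAZ1B (WSTF) and BAZ2A (TIP5) stood at -0.08, 0.03 and 0.26 there. BAZ1A (1097 and 1067 against 983 to 1103) and BAZ1B (2758 and 2597 against 2616 to 2801) were abundant and their groups overlapped, while BAZ2A had only 17 to 29 reads in a library.

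Of the large ATPases of the INO80 class and SMARCAD1, 2 rose, none fell and 2 did not pass. SRCAP, which deposits the histone variant H2A.Z, had 2451 and 2308 normalized counts in siNC and 2968, 3349.8 and 3659 in siHOTAIR. All siHOTAIR libraries lay above the controls, with a log2 change of 0.48 (SE 0.085, adjusted p = 1.71e-07) for SRCAP in the authors' deposited table. INO80 had 280.5 and 282 in siNC and 330.1, 359 and 402 in siHOTAIR, a log2 change of 0.36 (SE 0.121, adjusted p = 0.00929), per the authors' deposited table. EP400, the ATPase of the TIP60 acetyltransferase complex, had 2456 and 2132 against 2155, 2378 and 2708, so the groups overlapped, and stood at 0.07 in the authors' deposited table. SMARCAD1, which acts at replicating heterochromatin, had 183 and 187 against 172, 139 and 143 and stood at -0.28 (adjusted p = 0.151) in the authors' deposited table. The siHOTAIR libraries of SMARCAD1 were lower, but it did not pass.

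Of 28 pairs of close paralogs among the members, both genes were tested in 26 and both were called in 6. In 5 of these, 1 gene rose and the other fell: SMARCD1 with SMARCD2, CHD4 with CHD3, MTA1 with MTA2, and CHD8 with both CHD6 and CHD9. In the remaining pair, CHD6 and CHD9, both fell. CHD8 thus counts in 2 of the 5 pairs, and over all features 20% rose and 20.4% fell. Shares were computed from normalized counts per kilobase of the longest coding transcript, so they compare RNA levels and not protein. SMARCD1 made up 22.8% ± 0.647 (SD, n = 2) of the BAF60 RNA in siNC and 35.4% ± 0.599 (SD, n = 3) in siHOTAIR. SMARCD2 made up 59.9% ± 0.338 (SD, n = 2) and 42.9% ± 1.65 (SD, n = 3), the largest share by this measure in both groups. That order rests on the transcript lengths used. In normalized counts not divided by length, SMARCD1 lay below SMARCD2 in siNC (611 and 621 against 1163 and 1239). In siHOTAIR, SMARCD1 lay above SMARCD2 by such counts (904, 854 and 894 against 770, 811 and 799). MTA1 went from 28.0% ± 0.0376 (SD, n = 2) of the MTA RNA to 51.7% ± 2.40 (SD, n = 3), and MTA2 from 65.8% ± 0.346 to 44.0% ± 2.35, so the order of the 2 genes was exchanged. CHD4 made up 61.6% ± 0.575 (SD, n = 2) of the CHD3 and CHD4 RNA in siNC and 71.9% ± 0.640 (SD, n = 3) in siHOTAIR by its closest set of reads, and 59.2% and 68.4% with SDs of 13.4 and 13.1 by the farthest of the 3. BCL7A went from 10.6% ± 1.83 (SD, n = 2) of the BCL7 RNA to 25.9% ± 1.68 (SD, n = 3), while BCL7C held most of it per kilobase in both groups. In normalized counts not divided by length, BCL7A and BCL7C lay near each other in siHOTAIR (386, 397 and 406 against 402, 484 and 413). CHD8 went from 49.8% ± 0.546 (SD, n = 2) to 61.5% ± 0.587 (SD, n = 3) of the CHD6 to CHD9 RNA. These shares did not overlap between the groups (CHD4 by its closest set). Neither did most other shares computed, such as those of SMARCA4 and SMARCA2 or of DPF1 and DPF2, genes that did not pass. For the log2 gene ratio in each of the 5 pairs, the two-sided exact permutation p was 0.2 (with the closest set for CHD4). That is the smallest that 2 against 3 libraries can give. The 5 pairs were picked for opposite calls in these same libraries, so this p adds nothing to those calls. It was also 0.2 for SMARCA2 with SMARCA4 and for BAZ1A with BAZ1B, where neither gene passed.

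**Figure D4:**
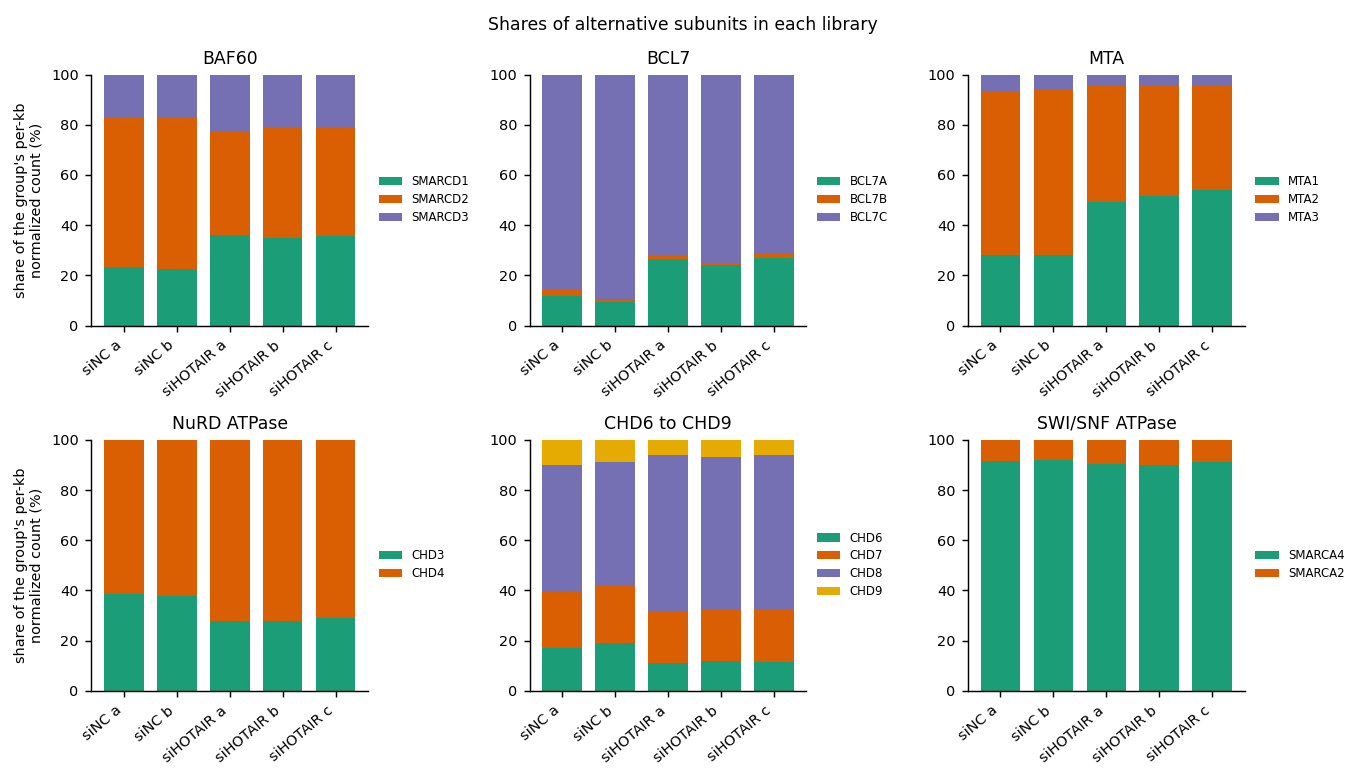
Share (percent) of each paralog in the summed normalized count per kilobase of its group, stacked to 100%, for each of 2 siNC and 3 siHOTAIR libraries. SMARCD1, BCL7A, MTA1, CHD4 and CHD8 take larger shares in all 3 siHOTAIR libraries than in either siNC library (CHD4 by its closest set of reads). SMARCA4 takes a slightly smaller share in each siHOTAIR library, 90.2%, 90.2% and 91.2% against 91.6% and 91.8% in siNC.

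Levels per kilobase also ranked the members within each group. In siNC, CHD4 had the highest mean level, 861 normalized counts per kilobase, followed by MTA2 with 722, SMARCA4 with 547 and CHD3 with 536, while MTA1 had 307. In siHOTAIR, CHD4 had 1091, MTA1 708, MTA2 601 and SMARCA4 524. The lowest in both groups were DPF3 (0.185 in siNC and 0.143 in siHOTAIR), BAZ2A (2.06 and 2.49), BCL7B (3.75 and 2.72) and GATAD2A (5.61 and 6.67). Whether the counting used strand, and how it treated reads shared by overlapping or near-identical genes, was not given in the sources used here, and the split between paralogs and the lowest levels are uncertain to that extent.

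Promoter sequences are shown for the 2 members that rose most and the 2 that fell most, to set beside their opposite changes. They are the 120 bases before the annotated start, read 5′ to 3′ on the gene's strand from RefSeq (GRCh38.p14), and 42 of the 50 members had an entry. Capitals mark the GC box GGGCGG and the ETS core CCGGAA, searched on both strands. The regions are chr12:122021764-122021883 (plus strand) for BCL7A, chr14:105419707-105419826 (plus strand) for MTA1, chr16:50368989-50369108 (minus strand) for BRD7 and chr17:63842686-63842805 (minus strand) for SMARCD2.
BCL7A: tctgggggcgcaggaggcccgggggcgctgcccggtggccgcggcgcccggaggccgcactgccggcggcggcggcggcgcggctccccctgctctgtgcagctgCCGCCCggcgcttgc
MTA1: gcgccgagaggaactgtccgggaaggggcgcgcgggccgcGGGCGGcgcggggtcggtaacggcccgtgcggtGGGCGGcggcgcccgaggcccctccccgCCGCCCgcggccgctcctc
BRD7: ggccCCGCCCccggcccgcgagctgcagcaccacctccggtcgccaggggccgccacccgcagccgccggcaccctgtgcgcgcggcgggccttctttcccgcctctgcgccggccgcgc
SMARCD2: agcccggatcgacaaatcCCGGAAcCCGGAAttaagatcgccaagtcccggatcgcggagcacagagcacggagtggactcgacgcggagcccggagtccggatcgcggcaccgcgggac
The MTA1 window held 3 GC boxes, the BCL7A and BRD7 windows 1 each, and the SMARCD2 window 0, with 2 ETS cores instead. BCL7A and MTA1 windows were 85.0% G and C, BRD7 83.3% and SMARCD2 66.7%. In the full 300 bases of an entry (250 before the start and 50 after), the GC box was present in 35 of 42 members (83.3%), against 68.7% of the 11190 tested genes with an entry and 44.6% of all 27305 entries. It was held by 9 of 9 members that rose, 6 of 8 that fell and 19 of 24 that did not pass. The ETS core was held by 2, 3 and 6 of them, and the CCAAT box (CCAAT) by 1, 1 and 12, against 28.5% and 36.3% of the tested genes. The E-box CACGTG was held by 2 of 42 members and the TATA box TATAAA by 1, against 10.1% and 5.95% of the tested genes. These are matches of letters in a window and not binding sites.

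Further genes were other subunits of these complexes and 14 other ATPases of the SNF2 family. Their lists were chosen by subunit or family and not by response, but with earlier results of these data known. They moved in both directions: 17 of 62 tested rose and 17 fell, 54.8% beside the 40.4% of all features. Of these calls, 9 (3 rose and 6 fell) were of the SNF2-family ATPases and not of the listed subunits. The median mean of the 62 genes was 411 normalized counts against 199 over all features, and 55% of the features with a mean of 200 to 3500 were called. Among the other subunits was BICRAL, the paralog of BICRA, which moved against it, with 143 and 114 normalized counts in siNC and 46.8, 54.6 and 51.8 in siHOTAIR. Its log2 fold change was -1.30 (SE 0.214, adjusted p = 1.4e-08) by the authors' deposited table, and ACTB, the actin of the complex, had 0.46 there. In NuRD, 3 of 9 rose and 3 fell, among them PWWP2B (0.88), CDK2AP1 (-0.39) and the deacetylase HDAC1 (-0.29) in the authors' deposited table. The other risers, named after their values were seen, were near the threshold there: CHD5 (adjusted p = 0.0451) and PWWP2A (adjusted p = 0.0396). CHD5 had only 2 to 13 reads per library, and its limma call was lost without siHOTAIR b (adjusted p = 0.0676). HDAC1 had 975 and 1005 normalized counts in siNC and 785 to 826 in siHOTAIR, below both controls.

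Of 7 other ISWI partners, 4 rose and none fell. POLE3 and CHRAC1, the histone-fold pair of the CHRAC complex, had log2 fold changes of 0.43 and 0.38, and HMGXB4, a NURF-associated protein, 0.30 in the authors' deposited table. The limma call of HMGXB4 (343 and 350 normalized counts against 378 to 473) was lost without siNC a and without siHOTAIR c, with adjusted p up to 0.0761. The fourth riser, named after its values were seen, was RSF1, the partner of SMARCA5 in the RSF complex, at 0.48 (adjusted p = 0.0335), per the authors' deposited table. Of 13 other INO80 subunits, 1 rose and 3 fell, led by RUVBL1, an AAA+ ATPase shared by INO80, SRCAP and TIP60 complexes. RUVBL1 had 603 and 657 normalized counts in siNC and 327, 294 and 317 in siHOTAIR, a log2 change of -0.999 (SE 0.105, adjusted p = 9.92e-20), per the authors' deposited table. All siHOTAIR libraries were far below the controls, while INO80 and SRCAP themselves rose. UCHL5, a deubiquitinase of INO80, and YY1, its DNA-binding partner, had -0.42 and 0.27 in the authors' deposited table, and the limma call of YY1 was lost without siHOTAIR b (adjusted p = 0.0512).

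Of 17 genes listed as other SRCAP and TIP60 subunits, 5 rose and 4 fell. MORF4L1 and MORF4L2, the chromodomain protein MRG15 and its relative, had log2 fold changes of -0.71 and -0.50, and VPS72, the H2A.Z-binding subunit of SRCAP, -0.68 in the authors' deposited table. VPS72 had 534 and 709 normalized counts in siNC and 371 to 397 in siHOTAIR. The 5 that rose, named after their values were seen, were ING3 (0.87), YEATS4 (0.81), DMAP1 (0.43), MEAF6 (0.29) and MRGBP (0.27) in the authors' deposited table. The limma calls of ING3 and DMAP1 held without any single library, whereas those of YEATS4, MEAF6 and MRGBP were lost without some library, with adjusted p up to 0.0718, 0.0726 and 0.225. Of 14 other ATPases of the SNF2 family, 3 rose and 6 fell, among them RAD54L (0.59), CHD1L (-0.46) and RAD54L2 (-0.63) in the authors' deposited table.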

How the data were processed

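Per the submitters' processing notes the tools were HTSeq 0.6.1, DESeq and DESeq2 with the build hg19. Aligner and annotation were not given in the sources used here. Each deposited mean is a signal that the authors made by dividing each library's count by its size factor and averaging. Their deposited log2 fold changes and standard errors are shrunken toward 0 where reads are few. A further deposited score is the fold change divided by its standard error. The deposited p-values and adjusted p-values carry DESeq2 column names, per the file headers, and no column holds a single library (0 columns). The authors' second full table repeats these values, with 0 features differing.

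A gene rose or fell when the deposited adjusted p was under 0.05. The members, the lists and the rule for named genes were chosen with earlier results of these data known. The rule named every member, with error and adjusted p for up to 4 of each list, and up to 3 other subunits per list.

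Each deposited mean is a sum of whole reads times 5 library steps. Whole-number solutions were listed for means up to 7000 and kept where a refit of the negative binomial model with the same prior gave the deposited fold change within 2e-06 (3e-07 from a mean of 1000). This gave reads for 14435 of the 14597 features with an adjusted p. Solutions were found for 0 of 300 randomly moved means under 20, 0 of 300 from 20 to 1000 and 2 of 300 from 1000 to 4000. A library was placed in siHOTAIR where features whose single read lay in it had a positive deposited fold change. The size factors found were 1.19 (siNC a), 0.893 (siNC b), 1.15 (siHOTAIR a), 0.934 (siHOTAIR b) and 0.888 (siHOTAIR c). Limma 3.58.1 (R 4.3.3, mean trend, Benjamini-Hochberg) was run on log2 of normalized counts plus 1, with a pseudocount of 0.5, limma-voom and leaving out each library as alternatives. Scripts were tested on simulated data. Lengths are of the longest coding transcript in GENCODE 29. Gene symbols and promoters came from RefSeq tables of GRCh38.p14, a later build than hg19, so no gene coordinates are given besides those of the printed sequences. The planned protein identity of paralogs was not computed, since no protein table was used here.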

Additional observations from a re-analysis of the deposited data

How the results depend on the processing

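The 20 member calls stayed 16 to 20 under an adjusted p of 0.01, a Benjamini-Yekutieli adjustment, a minimum mean of 20, no filter on low values and centring on the median of all features (a shift of 0.01 on the log2 scale). At an adjusted p under 0.001 with a change of at least 2-fold, 2 members remained called, BCL7A and MTA1. Shares over all features at these settings are not given here, so these counts are not read as a result about the members. Limma, planned for single genes only, and limma-voom were chosen for this count after seeing the data. Each called 22 of 49 members, including all 20, and added BCL7C and DPF1. Over all 14435 features with recovered reads, limma called 6763 and limma-voom 6801. Each library was also left out in turn, with a lone siNC library assumed to vary like the siHOTAIR group. The log2 fold changes of the 20 called members kept their sign in every one of these fits, and 16 stayed past the threshold without any single library; SMARCC2, ARID1A, CHD9 and MBD2 did not. Among members that did not pass, the sign changed when some library was left out for SMARCA4 (-0.14 to 0.0038), SMARCB1 (-0.18 to 0.0066), SMARCE1 (-0.0097 to 0.11), ARID1B (-0.079 to 0.26), ARID2 (-0.14 to 0.055), GATAD2B (-0.14 to 0.020), BAZ1B (-0.013 to 0.074) and EP400 (-0.032 to 0.17). The other subunits and SNF2-family ATPases called fell from 34 to 22 at an adjusted p under 0.01, again without the share over all features.

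No paired analysis was possible because the recovered libraries carry no replicate numbers. An edgeR fit, planned only if counts per library were at hand for all features, was not run, since reads are not known for every feature. CHD4 has the least certain reads, and its limma fits used the closest of 3 sets. The other sets, tried after seeing the data, moved the CHD3 to CHD4 log2 ratio from -0.67 to -0.57 and -0.62 and kept its sign. DPF3, BCL7B, BAZ2A and GATAD2A have few reads, with standard errors of 0.309 to 0.554 in the authors' deposited table.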
